A study of Homo sapiens with 4 samples.

Results

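The comparison set H9 cells without SIRT1 against unmodified H9 cells after 6 days of differentiation towards dopaminergic neurons. H9, also called WA09, is an established human embryonic stem cell line. The knockout carried a SIRT1 deletion, and the wild type carried no labelled change. Each genotype had 1 library at day 6, made with droplet 3′ sequencing (10x Chromium). A unique molecular identifier (UMI) marks every captured transcript, so that copies of 1 molecule are counted once. Barcodes were taken as cells where they held at least 4000 UMIs, at least 1000 genes and at most 20% mitochondrially encoded UMIs. That left 4419 knockout and 5372 wild-type cells, 9791 of the 22599 cells in the 4 libraries. The other 2 libraries were the same genotypes at day 0, and their values are given beside those of day 6. Which part of SIRT1 was deleted, whether the knockout line was 1 clone and whether the cultures ran in parallel are not given in the sources used here.

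SIRT1 is a deacetylase that uses NAD as a cofactor and acts on histones and on transcription factors, p53 and FOXO proteins among them. Protocols towards midbrain dopaminergic neurons first turn pluripotent cells into neural progenitors of the floor plate, the ventral midline of the neural tube, which is patterned by Hedgehog, WNT, FGF and BMP signals. Floor plate progenitors are known by FOXA2, with LMX1A and OTX2 in the midbrain.

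Median depth per cell was 13169 UMIs and 3832 genes in the knockout library, against 8590 UMIs and 2689 genes in the wild-type library. Levels are UMIs summed over the cells of a library, per 1000000 UMIs (CPM), after mitochondrially encoded and ribosomal protein genes were taken out of the sum. Ribosomal protein genes held 28.0% of the summed UMIs in the knockout and 32.1% in the wild type. The totals that remained were 45802390 UMIs in the knockout and 33812307 UMIs in the wild type. With 1 library per genotype there is no replicate check and no test. All 95% intervals cover counting error only, and culture, library and genotype cannot be told apart. A summed level also cannot tell fewer expressing cells from less RNA per cell, and for that reason shares of cells are given separately. The 2 day 6 libraries shared 5 cell barcodes. Barcodes of 1 to 50 UMIs, too small to be cells, held 4 genes (SPINK4, LYZ, S100A6 and KLK10) at least 10-fold above the cells in the knockout library. Their levels there were 90.5 to 304 per 1000000 UMIs, with the UMIs of all genes in the total. No such gene was found in the wild-type library. The libraries also stood apart on chromosome 20, which held a median of 2.41% of a knockout cell's UMIs and 3.25% of a wild-type cell's UMIs. At least 3% was reached by 1208 knockout cells (27.3%) and by 4198 wild-type cells (78.1%). For the 283 measured genes of chromosome 20 the median log2 ratio was -0.22 on day 6 and -0.31 on day 0, while the medians of the other chromosomes at day 6 lay between -0.02 and 0.30.

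SIRT1 itself (ENSG00000096717, chr10:67884669-67918390 of GRCh38, plus strand) stood at 14.2 CPM in the knockout library (95% interval 13.1 to 15.3) and at 46.0 CPM in the wild-type library (43.7 to 48.3). The knockout level was 3.24-fold lower (2.96 to 3.56) at day 6 and 4.56-fold lower at day 0. Reads from transcript 3′ ends do not show whether the remaining RNA carried the deleted part. Of the sirtuin and NAD synthesis genes 10 were measured, SIRT1 included, of which 2 passed 1.5-fold upward and 2 downward. With TMM factors (edgeR's trimmed-mean scaling) 1 passed upward, and 0 did when ratios were centred on genes of like length and level. SIRT5 (12.97 against 7.81 CPM) and SIRT3 (10.1 against 6.24 CPM), both mitochondrial sirtuins, had log2 ratios of 0.73 and 0.69 in the main scaling. NAPRT, which makes NAD from nicotinic acid, was lower at 14.0 against 21.8 CPM, and stood at 21.0 against 33.5 CPM at day 0.

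The stage of both libraries was checked against fixed markers. FOXA2, the floor plate factor, had 144 CPM in the knockout and 139 CPM in the wild type, and a UMI in 27.2% of knockout and 26.3% of wild-type cells after every cell was thinned to 4000 UMIs. OTX2 had 21.4 CPM in the knockout and 27.2 CPM in the wild type. LMX1A (3.54 against 0.858 CPM), SHH (0.786 against 0.946) and CORIN (0.175 against 0.621), the other floor plate markers, were near 0 in both libraries. SOX2, shared by pluripotent cells and neural progenitors, was at 668 CPM in the knockout and 640 CPM in the wild type, and LIN28A at 480 and 512 CPM in the same order. The pluripotency factor POU5F1 was at 260 CPM in the knockout and 281 CPM in the wild type at day 6, against 1291 and 1191 CPM at day 0. PAX6 was under 1 CPM in both libraries. Both libraries thus held FOXA2 in about equal measure, while LMX1A and SHH, which the labelled dopaminergic lineage also needs, were under the level counted as measured. FOXA2 and SOX2 differed so little that both turned to the other side of 1 with TMM factors. Markers of other cell types were mixed in level. TP63, which defines surface ectoderm, had 0 UMIs in both libraries, and none of the 15 hindbrain HOX genes looked for was measured. Of 16 mesenchymal genes 5 were measured, of which 3 were at least 1.5-fold lower in the knockout and 1 higher, with a median log2 ratio of -0.72. The lower ones were COL1A1, COL1A2 (51.2 CPM in the knockout and 88.8 CPM in the wild type) and PDGFRB (19.3 and 32.0 CPM), and the higher one was PRRX2 (13.4 and 5.50 CPM). The summed level of the 16 was 341 CPM in the knockout and 773 CPM in the wild type. Among the unmeasured ones, the fibroblast genes DCN and LUM had 43 and 32 UMIs in the knockout library, against 1 and 0 in the wild-type library. Of 13 endothelial and blood genes 2 were measured, KDR at 20.3 against 8.25 CPM and EGFL7 at 63.1 against 50.9 CPM, while CDH5 and PECAM1 were under 1 CPM in both. The part of these cell types in the results was not tested.

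At day 6, 9777 genes were measured, which means that they reached 10 CPM in at least 1 of the 2 libraries. A gene was called where the ratio was at least 2-fold and its interval excluded 1. By that rule 232 genes (2.37%) were higher and 261 genes (2.67%) were lower in the knockout. At day 0 the same rule called 47 genes higher (0.463%) and 60 lower (0.591%) among 10148 measured genes. At 1.5-fold, the limit used below for gene groups, 1244 genes (12.7%) were higher and 576 genes (5.89%) were lower at day 6, against 166 (1.64%) and 237 (2.34%) at day 0. Over all measured genes of day 6 the log2 ratio had a median of 0.16, so a typical gene stood a little higher in the knockout, and TMM factors moved that median to 0.03. The split of called genes moved with the scaling, to 132 higher and 338 lower with TMM factors and 127 and 343 with DESeq2 size factors. It moved the other way, to 271 higher and 174 lower, where mitochondrially encoded and ribosomal protein genes stayed in the total. Centred on genes of like length and level, the ratios gave 95 higher and 344 lower genes. At 1.5-fold, all genes gave 756 higher and 806 lower with TMM factors, and 557 and 874 when centred. Those counts are the background for list counts under these settings.

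**Figure D1:**
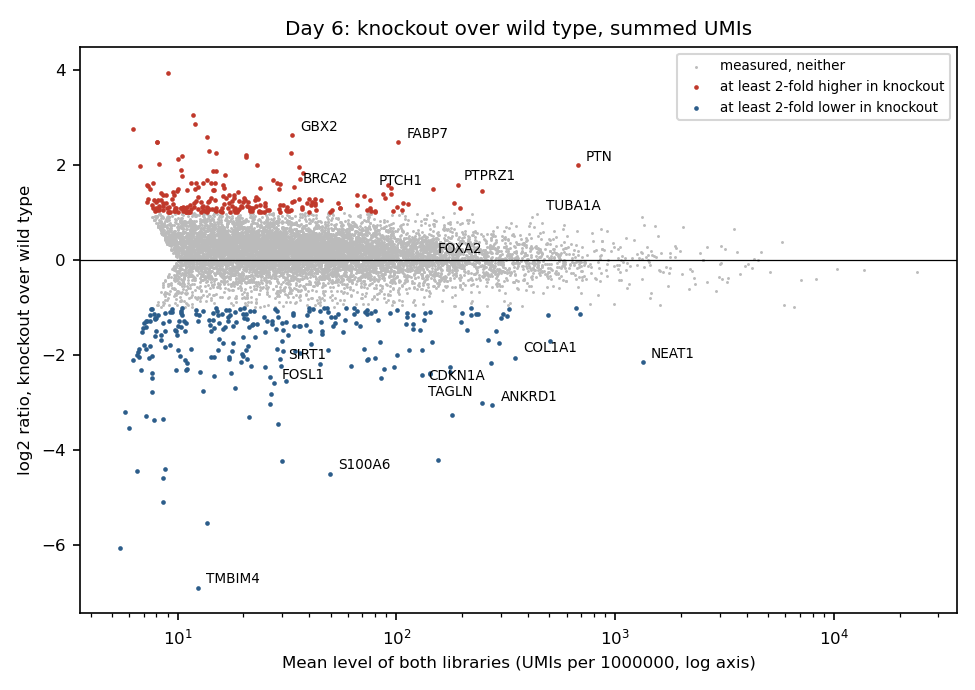
Each point is 1 of the 9777 measured genes at day 6, with its mean level over both libraries (UMIs per 1000000, log axis) against its log2 ratio, knockout over wild type. Red points are the 232 genes called higher and blue points the 261 called lower. The lower genes reach further from 0 (TMBIM4 at -6.89) than the higher ones, and FOXA2 lies near 0.

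Genes were ranked by log2 ratio among those with at least 20 CPM in 1 library. The 10 genes at the top of the ranking were 4.50- to 8.27-fold higher in the knockout and the 10 at the bottom 8.18- to 125-fold lower. Ranks 11 to 40 in each direction are described here gene by gene. The 30 genes on the higher side ran from 3.99-fold (PPP3CA) to 2.58-fold (PKDCC), and rank 41, CNMD, was just outside at a log2 ratio of 1.37, like PKDCC. The 30 on the lower side ran from 7.98-fold (TAGLN) to 4.24-fold (NPW), at a log2 ratio of -2.08, as was TENT5B at rank 41. In thinned shares of cells, drawn from the UMIs that ranked them, all 60 moved the same way. They also moved at least 1.5-fold in the same direction among cells with a FOXA2 UMI (1204 knockout and 1411 wild-type cells) and among cells without one (3215 and 3961 cells). The genes were picked for larger ratios in these same cells, so this too was close to fixed in advance.

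On the higher side, the genes of these ranks are given by role, starting with secreted and surface proteins. PTN (pleiotrophin, a secreted growth factor of radial progenitors; ENSG00000105894, chr7:137227341-137343865, minus strand) had 1077 CPM in the knockout and 271 CPM in the wild type, a ratio of 3.98 (3.89 to 4.07). Its receptor PTPRZ1, a receptor-type tyrosine phosphatase, had 286 CPM in the knockout and 95.4 CPM in the wild type, a ratio of 2.998 (2.88 to 3.12). Their log2 ratios fell to 0.81 and 0.79 in the 1208 knockout cells with at least 3% of UMIs from chromosome 20. Here and below, such cells were set against all wild-type cells. At day 0 both genes were within 1.5-fold between the genotypes, with log2 ratios of 0.35 and 0.25. NTS, the precursor of the neuropeptide neurotensin, had 57.0 CPM in the knockout and 14.8 CPM in the wild type. IGDCC3, a surface protein of the immunoglobulin superfamily, had 361 and 132 CPM in the knockout and the wild type. EFNB2, the membrane ligand ephrin-B2, had 125 CPM in the knockout against 48.2 CPM in the wild type.

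Genes with roles in synapses and neurites were also among these ranks. NLGN4X, a postsynaptic adhesion protein, had 58.3 CPM in the knockout and 16.4 CPM in the wild type, and had a log2 ratio of 0.70 at day 0. SLITRK5 and NTM, neuronal adhesion proteins, were 3.20- and 3.09-fold higher. TAGLN3, a neuronal relative of transgelin, was 3.26-fold higher (55.5 against 17.0 CPM), and MAP2, the dendritic microtubule protein, 2.84-fold higher (35.1 against 12.4 CPM). MAPK10, the JNK kinase of neurons, had 137 CPM in the knockout and 46.3 CPM in the wild type. DAB1, the adaptor of the reelin pathway, and PPP3CA, the catalytic subunit of calcineurin, were 2.77- and 3.99-fold higher. Regulators in the same ranks were NFIA, a transcription factor of the switch to glia (41.6 against 13.01 CPM), and RMST, a long noncoding RNA of neural progenitors (23.6 against 6.48 CPM). ERBB3, the neuregulin receptor of the crest lineage, was 2.78-fold higher, at under 25 CPM.

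**Figure D2:**
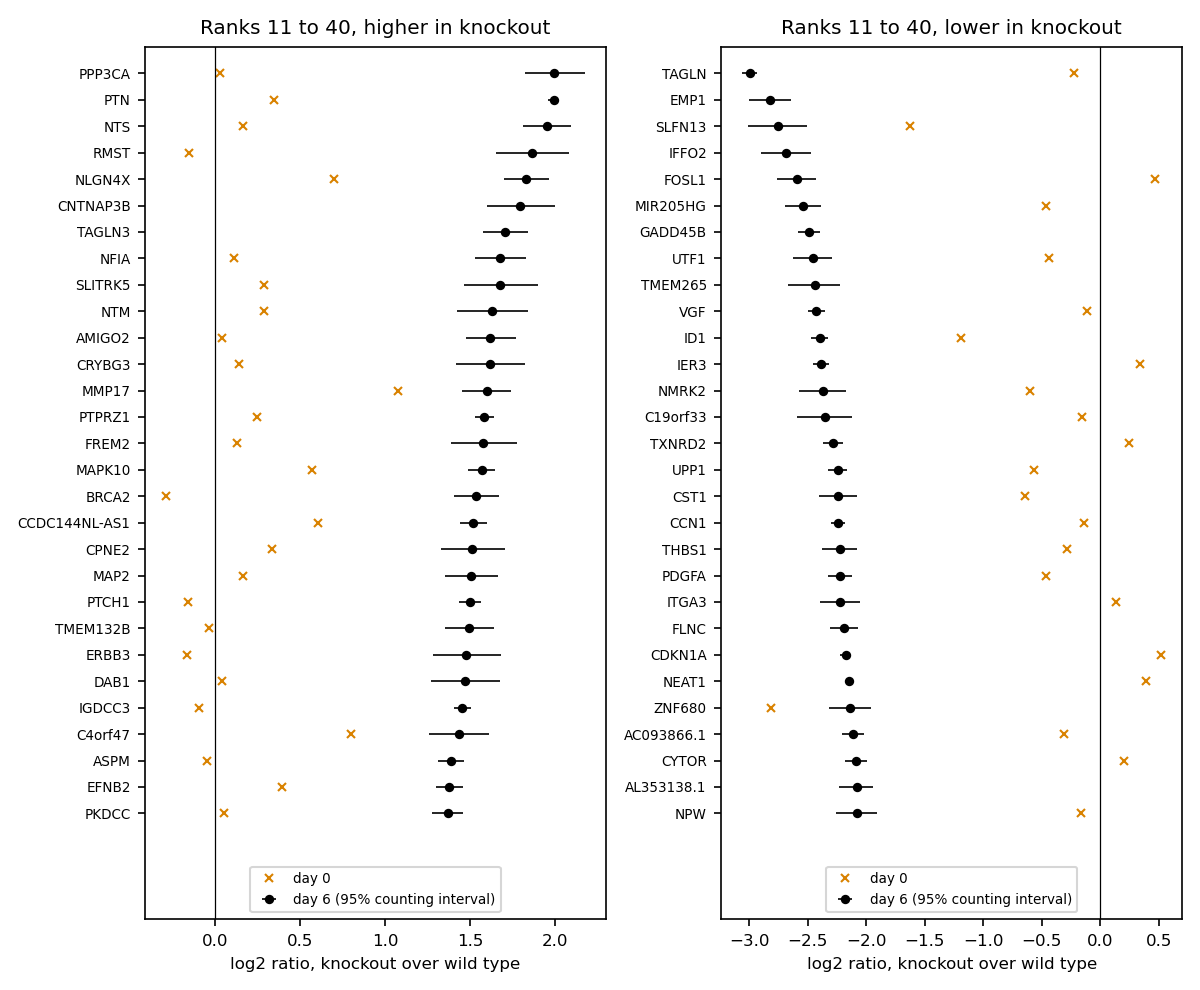
Black points give the day 6 log2 ratio, knockout over wild type, of genes from ranks 11 to 40 with the 95% counting interval as a bar, higher in the knockout on the left and lower on the right. Orange crosses give the same gene's day 0 ratio where it was measured. Of all 30 genes of these ranks on each side, 27 on the left and 24 on the right were measured at day 0, where 23 and 18 of them were not called at 1.5-fold. At that limit 1.64% of all measured genes were higher and 2.34% lower at day 0.

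Progenitor genes taken as a list moved the same way. Of 19 measured, 10 were at least 1.5-fold higher in the knockout and 0 lower, with a median log2 ratio of 0.76 against 0.16 for all genes. With TMM factors 10 were higher and 1 lower. FABP7, a fatty acid binding protein of radial glia, had 173 CPM in the knockout and 31.1 CPM in the wild type, a ratio of 5.58 (5.23 to 5.95). SOX5, a SOXD factor of the neural lineage, was 4.50-fold higher (33.7 against 7.48 CPM), and NCAM1, ZIC5 and PLAGL1 had log2 ratios of 1.26, 1.17 and 1.15. The early neuronal list was mixed, with 6 of 13 measured genes higher and 3 lower. The lower ones were ELAVL3 (9.78 against 16.4 CPM), INA and GAP43, all at under 25 CPM. The neural crest list had 5 of 8 higher and 3 lower, and its defining markers SOX10 and FOXD3 stayed near 0 in both libraries.

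Regional identity genes were low but differed. PAX8, a factor of the midbrain-hindbrain boundary region, had 16.9 CPM in the knockout and 1.09 CPM in the wild type, from 776 and 37 UMIs. GBX2, which sets the anterior border of the hindbrain, had 57.3 and 9.26 CPM in the same order, a ratio of 6.19 (5.51 to 6.99). EN1, of the midbrain and anterior hindbrain, had 13.7 CPM in the knockout and 2.45 CPM in the wild type, and so did FGF19, a ligand of the FGF family. SIX6 and SIX3, factors of the eye field and forebrain, had 21.0 and 13.1 CPM in the knockout, against 2.54 and 3.25 CPM in the wild type. Of the midbrain and hindbrain list, 4 of 6 measured genes were higher and 1, IRX1, was lower. Of the forebrain list, 3 of 4 were higher. The boundary, midbrain and forebrain genes named here were thus higher in the knockout, IRX1 apart, at low levels in both libraries. OTX2, the midbrain marker given above, was not higher, with a log2 ratio of -0.35 that was not called at 1.5-fold. After thinning to 4000 UMIs a GBX2 UMI was present in 12.8% of knockout and 2.16% of wild-type cells, and a SIX6 UMI in 4.05% and 0.484%. Unthinned, GBX2 was seen in 32.5% of knockout and 4.80% of wild-type cells. If 10% of the UMIs were free RNA, GBX2 would be seen in 1.38% of knockout and 0.210% of wild-type cells from that source. That rate is assumed, not measured.

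Some Hedgehog pathway genes stood higher as well. PTCH1, the Hedgehog receptor and a target of the pathway (ENSG00000185920, chr9:95442980-95517057, minus strand), had 217 CPM in the knockout and 76.7 CPM in the wild type, a ratio of 2.82 (2.71 to 2.95). GLI2, the transcription factor of the pathway, had 17.6 and 8.46 CPM, and BOC, a co-receptor, 12.6 and 6.89 CPM, knockout before wild type. These were 3 of 7 measured members, with 0 lower. Of the BMP list 4 of 13 were higher and 6 lower, and with TMM factors 1 was higher and 6 lower. ID1, a helix-loop-helix inhibitor induced by BMP, fell to 45.5 CPM in the knockout, against 240 CPM in the wild type. It lies on chromosome 20 and was lower at day 0 too (49.4 against 113 CPM). ID3, its close relative on another chromosome, was higher at 402 against 253 CPM, and CHRD, a secreted BMP antagonist, was at 13.1 against 6.33 CPM. BMP4, the ligand, and BAMBI, a decoy receptor, were lower, at 37.4 against 93.4 and 5.13 against 14.3 CPM. BMP4's log2 ratio of -1.32 became -0.08 in the 1208 knockout cells high in chromosome 20. The WNT list had 2 of 20 higher (FRZB, a secreted inhibitor, and FZD3, a receptor) and 1 lower (RNF43), which is near the background.

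Cell cycle and DNA repair genes were higher by small amounts. Of 49 S phase genes 19 were at least 1.5-fold higher in the knockout and 0 lower, with a median log2 ratio of 0.49. Of 58 G2 and M phase genes 18 were higher and 1, RANGAP1, lower, with a median of 0.39. Of 26 homologous recombination and Fanconi anaemia genes 12 were higher and 0 lower, with a median of 0.55. Of all measured genes 12.7% were higher and 5.89% lower, with a median of 0.16. With TMM factors the higher counts were 12, 13 and 8 in that order and the lower counts 0, 1 and 0. Centred on genes of like length and level, the higher counts were 9, 14 and 7. Of all 9777 genes, 756 were higher with TMM factors and 557 when centred. BRCA2, a core protein of homologous recombination (ENSG00000139618, chr13:32315474-32400266, plus strand), had 50.6 CPM in the knockout and 17.4 CPM in the wild type, a ratio of 2.90 (2.65 to 3.18). At day 0 it was at 50.0 and 61.0 CPM, so the day 6 level was like that of day 0 in the knockout and lower than it in the wild type. BRIP1, a helicase that binds BRCA1, had 27.8 and 12.0 CPM, and BRCA1 99.8 and 50.0 CPM, knockout before wild type. ASPM, a spindle pole protein of dividing progenitors, had 136 CPM in the knockout and 52.1 CPM in the wild type. CENPE, the kinetochore motor, was 2.54-fold higher, NCAPG, a condensin subunit, 2.01-fold higher, and the proliferation marker MKI67 1.95-fold higher (292 against 150 CPM).

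Genes of the G2 and M phases are known for promoters that carry CCAAT boxes, bound by NF-Y, and a cell cycle homology region (CHR) with the letters TTTGAA. The 300-base windows around the starts of the listed genes were read from the RefSeq promoter table (GRCh38.p14), which held 49 of the 58 G2 and M genes, and searched on both strands. NF-Y letters, CCAAT, were present in 35 windows (71.43%) and CHR letters in 34 (69.39%), against 35.7% and 15.43% of all 27305 windows. The windows of 2 of the 3 genes with the highest ratios are shown because they hold these letters, which are in capitals. In ASPM (chr1:197146620-197146919, minus strand) there are 4 CCAAT boxes, each on the opposite strand as ATTGG, and 1 CHR on the opposite strand as TTCAAA. In NCAPG (chr4:17810729-17811028, plus strand) there is 1 CHR, 35 bases before the start. The window of CENPE held neither. The matches are letters in a window, not bound sites.

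ASPM: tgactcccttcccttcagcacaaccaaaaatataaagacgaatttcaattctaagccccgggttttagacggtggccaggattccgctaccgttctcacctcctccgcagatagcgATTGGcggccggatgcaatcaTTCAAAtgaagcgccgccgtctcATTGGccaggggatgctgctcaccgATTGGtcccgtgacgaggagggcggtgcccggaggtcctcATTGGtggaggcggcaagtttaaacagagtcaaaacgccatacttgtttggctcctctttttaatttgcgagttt
NCAPG: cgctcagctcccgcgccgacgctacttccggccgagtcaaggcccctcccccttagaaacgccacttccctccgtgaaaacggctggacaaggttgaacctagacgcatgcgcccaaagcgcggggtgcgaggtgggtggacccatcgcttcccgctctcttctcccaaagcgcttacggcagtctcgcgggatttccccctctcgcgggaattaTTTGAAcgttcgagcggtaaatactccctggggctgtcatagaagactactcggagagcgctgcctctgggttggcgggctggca

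On the lower side, targets of YAP and TEAD, the transcription factors that respond to cell shape and contact, had the lowest median among the lists with at least 10 measured genes. Of 18 measured, 12 were at least 1.5-fold lower in the knockout and 2 higher, with a median log2 ratio of -0.92. TMM factors gave the same counts. ANKRD1, a muscle ankyrin-repeat protein and a standard YAP target (ENSG00000148677, chr10:90912096-90921276, minus strand), had 59.0 CPM in the knockout and 491 CPM in the wild type, 8.32-fold lower (7.99 to 8.67). At day 0 it was under 1 CPM in both. CCN1, a secreted matrix-associated protein, had 61.4 CPM in the knockout and 290 CPM in the wild type, 4.73-fold lower. CCN2, its relative, had 78.6 and 188 CPM in the same order. AXL, a receptor tyrosine kinase, was 2.80-fold lower and NUAK2, a kinase of the AMPK family, 2.62-fold lower. The 2 higher members were CCDC80 and IGFBP3, both under 20 CPM.

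TEAD proteins bind the letters GGAATG. These were present in 7 of the 18 promoter windows held for the 25 genes of the YAP list, measured or not (38.89%). The share over all windows was 14.05%, and the list is made of genes picked for such binding. The windows of ANKRD1 (chr10:90921038-90921337, minus strand) and NUAK2 (chr1:205321696-205321995, minus strand) are shown. Of the members whose windows were read in order of ratio, these were the lowest that hold the motif. No window was read for CCN1. In ANKRD1 the capitals begin 220 and 128 bases before the start. In NUAK2 they begin 197 bases before it, on the opposite strand as CATTCC, and 18 bases before it. The window of AXL held none.

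ANKRD1: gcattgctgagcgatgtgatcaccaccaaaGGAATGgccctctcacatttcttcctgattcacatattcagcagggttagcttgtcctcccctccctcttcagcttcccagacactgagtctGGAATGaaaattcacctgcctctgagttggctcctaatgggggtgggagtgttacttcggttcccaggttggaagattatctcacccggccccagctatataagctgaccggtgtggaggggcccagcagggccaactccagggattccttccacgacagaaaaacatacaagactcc
NUAK2: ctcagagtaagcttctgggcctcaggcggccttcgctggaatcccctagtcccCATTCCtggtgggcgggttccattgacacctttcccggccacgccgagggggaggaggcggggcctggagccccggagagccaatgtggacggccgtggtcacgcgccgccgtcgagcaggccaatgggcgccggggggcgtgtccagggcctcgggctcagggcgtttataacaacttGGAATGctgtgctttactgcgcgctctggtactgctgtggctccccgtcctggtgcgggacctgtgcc

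Some contractile and matrix genes were lower too, as were 3 of the 5 measured mesenchymal genes given above. TAGLN (transgelin, an actin-binding protein of smooth muscle; ENSG00000149591, chr11:117199321-117204782, plus strand) had 54.9 CPM in the knockout and 438 CPM in the wild type, 7.98-fold lower (7.65 to 8.33). MYL9, a myosin light chain on chromosome 20, had 150 and 420 CPM, knockout before wild type. Of 25 actin and SRF target genes 7 were lower and 1 higher, FLNA at 560 against 373 CPM, and with TMM factors 9 were lower and 0 higher. In ranks 11 to 40 were also FLNC, the muscle filamin (4.57-fold lower), ITGA3, an integrin subunit (4.67-fold), and THBS1, the matrix protein thrombospondin 1 (4.68-fold). Of the matrix genes 5 of 26 were lower and 6 higher. With TMM factors 7 were lower and 4 higher, and when centred 8 and 4, in settings that moved all genes downward too. SPP1 (osteopontin) had 15.9 CPM in the knockout and 295 CPM in the wild type. COL1A1, the main fibrillar collagen chain, had 135 and 562 CPM, and FN1 (fibronectin) 111 and 307 CPM in the same order. FN1's log2 ratio of -1.47 became -0.57 in the 1208 knockout cells high in chromosome 20. COL9A1 and COL11A1, chains of cartilage collagens, were higher, at 46.5 against 20.02 CPM and 75.3 against 35.5 CPM. Of 12 S100 proteins and annexins 6 were lower and 0 higher, ANXA2 among them at 124 against 400 CPM.

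Response genes formed another block of the lower side. Of 26 p53 targets 14 were lower and 0 higher, with a median log2 ratio of -0.63, and with TMM factors 16 were lower. CDKN1A, the CDK inhibitor p21, had 98.3 CPM in the knockout and 444 CPM in the wild type, 4.52-fold lower (4.37 to 4.67). GDF15, a secreted stress factor, had 48.3 and 180 CPM, and PLK3 and PLK2, stress-induced kinases, had log2 ratios of -1.63 and -1.51. At day 0 3 of 25 members were higher and 0 lower. Of 17 immediate early genes, those induced within minutes of a stimulus, 11 were lower and 1, EGR1, higher, with a median of -0.83. FOSL1, an AP-1 subunit, had 7.79 CPM in the knockout and 47.2 CPM in the wild type, 6.05-fold lower, and IER3 had 46.0 and 240 CPM. GADD45B, a stress-response gene of the GADD45 family, was 5.61-fold lower. Of 22 integrated stress response genes 10 were lower and 0 higher, led by TRIB3, which lies on chromosome 20 (2.60 against 10.4 CPM), and ATF5 (14.9 against 57.4 CPM). Of 14 BCL2 family genes 7 were lower and 0 higher, anti- and pro-apoptotic members alike. BCL2L1, which codes for BCL-XL and lies on chromosome 20, had 23.2 and 68.0 CPM, and BMF and BBC3, its antagonists, had log2 ratios of -1.17 and -1.14.

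Other members of ranks 11 to 40 on the lower side had metabolic, signalling or epithelial roles. TXNRD2, the mitochondrial thioredoxin reductase, had 29.9 CPM in the knockout and 146 CPM in the wild type, with no 1.5-fold difference at day 0. NMRK2, a kinase that makes NAD from nicotinamide riboside, had 5.70 and 29.5 CPM, and UPP1, uridine phosphorylase, 34.0 and 161 CPM. VGF, a neurosecretory protein precursor, was 5.38-fold lower and PDGFA, a growth factor, 4.68-fold lower. UTF1, a chromatin factor of undifferentiated cells, had 8.19 and 44.9 CPM, and of 15 pluripotency-associated genes 4 were lower and 1, L1TD1, higher. MIR205HG, the host transcript of an epithelial microRNA, was 5.81-fold lower. All 4 measured genes of the surface ectoderm list were lower, KRT8 at 430 against 947 CPM and KRT19 at 148 against 325 CPM. Keratins 8, 18 and 19 are also made by stem cells. The nuclear noncoding RNA NEAT1, which builds paraspeckles, had 492 CPM in the knockout and 2179 CPM in the wild type. MALAT1, a nuclear RNA of the same locus looked at after its values were seen, had 21950 and 26027 CPM in the same order and was 1.19-fold lower.

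Among groups that SIRT1 is known to act on, the mitochondrial ones lay near the middle. None of the 12 measured genes of mitochondrial biogenesis and the PGC-1 pathway passed 1.5-fold in either direction. Nor did any of the 73 nuclear genes of oxidative phosphorylation, whose log2 ratios lay between -0.55 and 0.52 with a median of 0.00. With TMM factors 2 of the 73 were lower. Of 14 FOXO targets 4 were lower and 1 higher, and of 7 measured NF-kappaB targets 2 were lower, against 5.89% of all genes. Their median log2 ratios were -0.20 and -0.22. Of 17 antioxidant and NRF2 target genes 5 were lower, led by HMOX1 (4.02 against 18.0 CPM), and 1, the NRF2 relative NFE2L3, was higher at 33.9 against 7.36 CPM. The median of that list was -0.40.

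**Figure D3:**
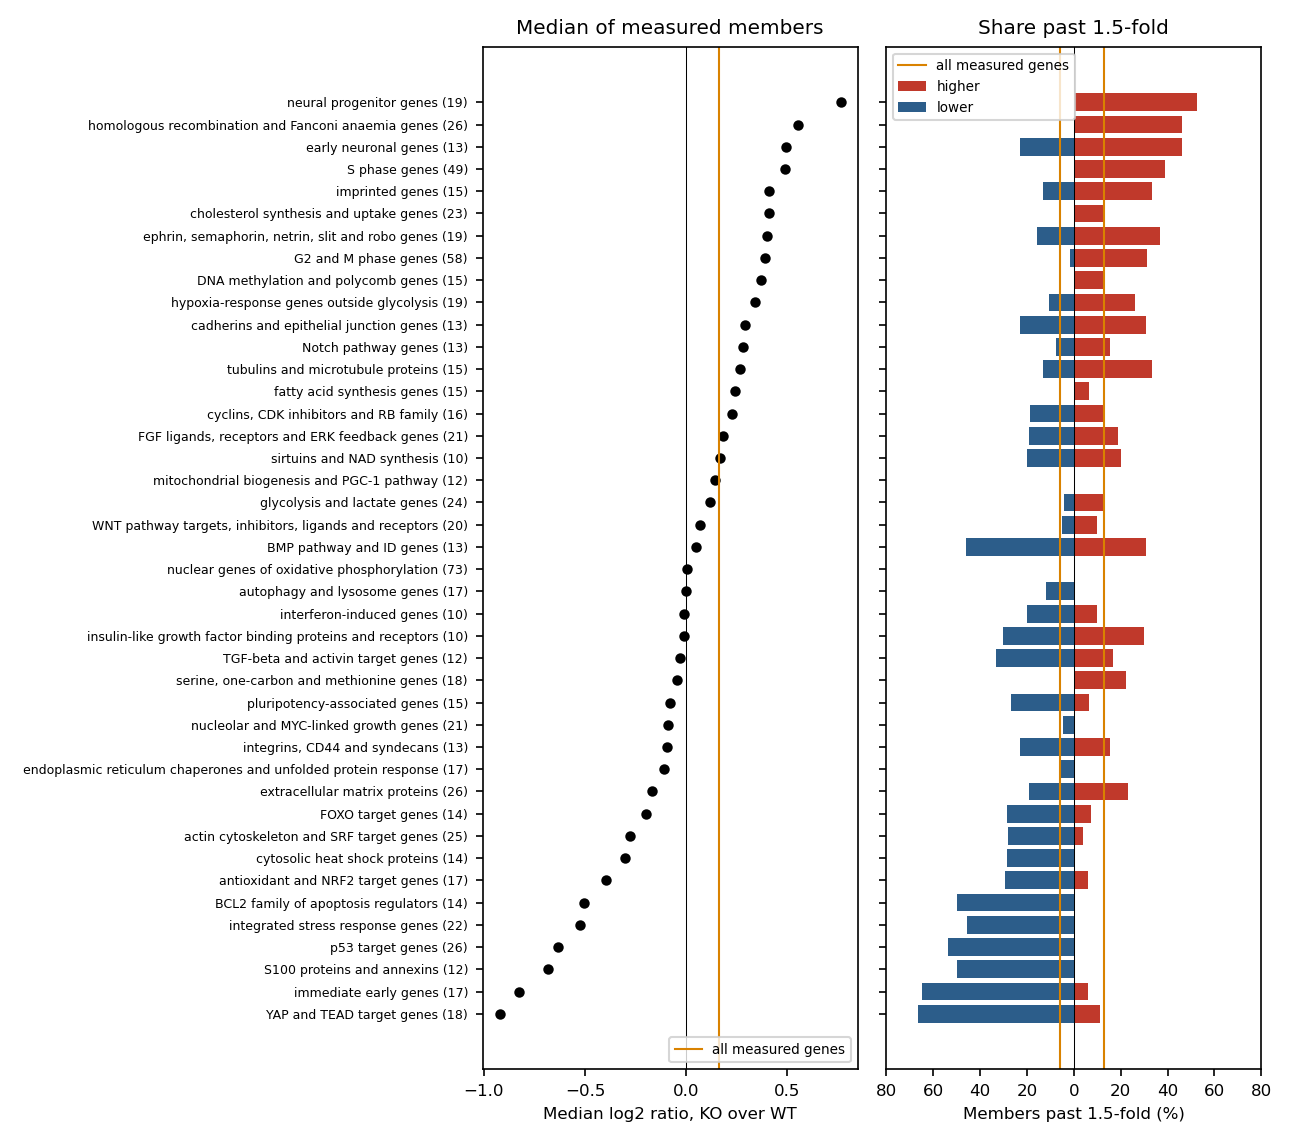
For the lists with at least 10 measured genes, the left panel gives the median log2 ratio, knockout over wild type, and the right panel the percent of measured members at least 1.5-fold lower (blue, left of 0) or higher (red, right of 0), with the number measured in brackets. Orange lines mark all measured genes, at a median of 0.16 and at 5.89% lower and 12.7% higher. YAP targets have the lowest median (-0.92) and neural progenitor genes the highest (0.76).

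Shares of cells with a UMI were compared as well. Unlike the levels, thinning drew from all UMIs, mitochondrially encoded and ribosomal protein genes included. Ribosomal protein genes held more of the wild-type UMIs, so a thinned knockout cell kept more UMIs of other genes on average. After thinning to 4000 UMIs per cell, 210 of the 9777 measured genes (2.15%) were found in a share of cells at least 10 percentage points higher in the knockout and 110 (1.13%) in a share at least 10 points lower. COL1A1 had a UMI in 24.5% of knockout and 63.9% of wild-type cells, ANKRD1 in 10.5% and 49.9%, and CDKN1A in 17.3% and 50.2%. NEAT1 was likewise in 49.5% of knockout and 81.7% of wild-type cells. In the other direction PTN had a UMI in 66.7% of knockout and 37.0% of wild-type cells, and TUBA1A, the alpha-tubulin of young neurons, in 74.5% and 49.2%. RBIS followed with 52.7% and 27.8%, PTPRZ1 with 43.3% and 18.6%, FABP7 with 31.3% and 7.59% and PTCH1 with 40.3% and 18.1%. The binomial intervals of every pair named lay apart, which picking the widest gaps made nearly certain. They treat cells of 1 library as independent, and such cells are not replicates. Without thinning, PTN was in 87.8% of knockout and 54.6% of wild-type cells. From free RNA at the same 10%, PTN would be seen in 17.3% and 4.41% of cells and ANKRD1 in 1.44% and 9.18%, each under the share seen. The rate is assumed. It would put S100A6 in 11.5% of knockout cells, where 0.973% had it, so these free RNA shares set no firm bound.

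For most genes the share was what evenly spread UMIs would give. The median ratio of the observed share to the share of a Poisson spread with the same mean was 0.987 in the knockout and 0.988 in the wild type. Some of the genes above were more clustered among cells. TAGLN was in 37.4% of wild-type cells, where an even spread of its UMIs would reach 65.1%, and a positive wild-type cell held 2.82 of its UMIs on average, against 1.61 in a positive knockout cell. ANKRD1 was in 49.9% of wild-type cells against 72.6% for an even spread, and SPP1 in 22.4% of them. On the higher side PTN was in 66.7% of knockout cells against 95.6% for an even spread, with 4.70 UMIs per positive knockout cell and 2.08 per positive wild-type cell. RBIS, by contrast, was in 52.7% of knockout cells, equal to its even spread. In the library where each was high, TAGLN, ANKRD1 and PTN were thus spread unevenly over the cells.

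**Figure D4:**
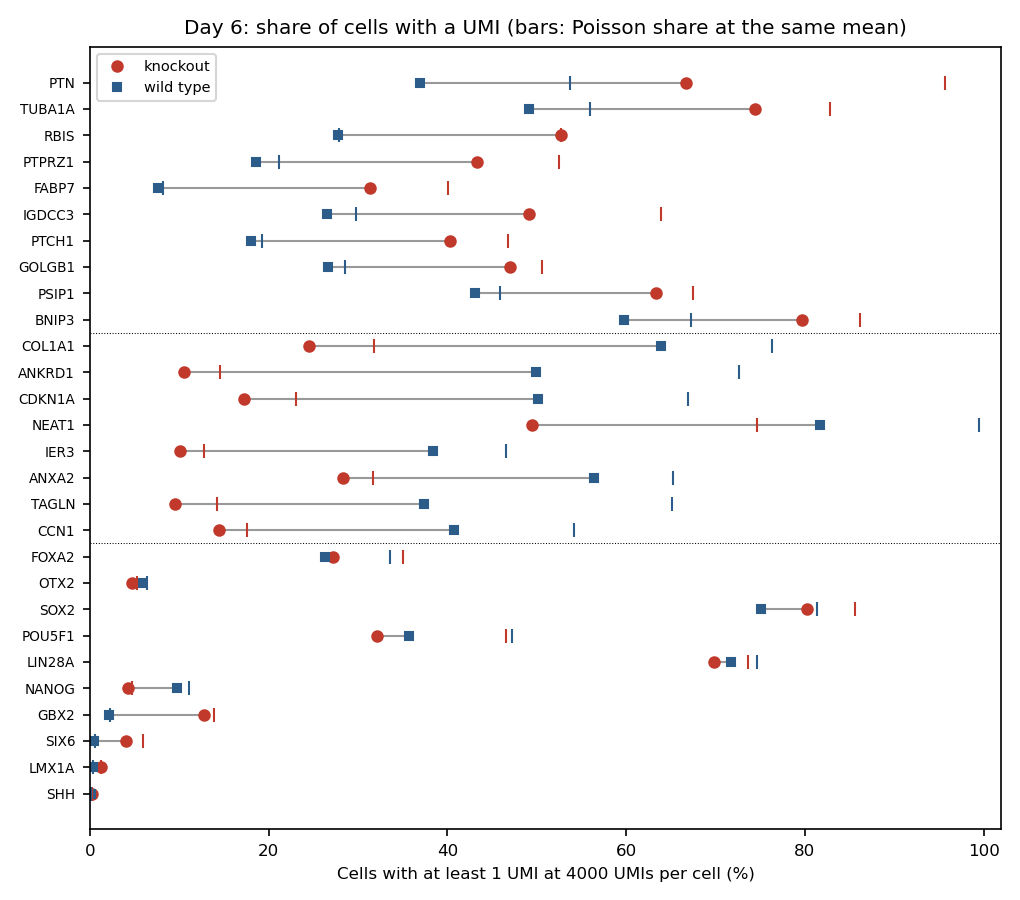
Percent of cells with at least 1 UMI after thinning to 4000 UMIs per cell, knockout as red circles and wild type as blue squares. Vertical ticks give the share a Poisson spread of the same mean would reach. From the top come genes among the 10 widest gaps higher in the knockout (PTN 66.7% against 37.0%), genes among the 10 widest gaps lower in it (COL1A1 24.5% against 63.9%), and markers, of which FOXA2 (27.2% against 26.3%) nearly coincides.

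Ratios at day 6 also ran with gene length. The 385 measured genes of up to 3 kb had a median log2 ratio of 0.02, those of 30 to 100 kb 0.19, and the 334 genes over 300 kb 0.36. Of the genes over 300 kb 10.2% were called higher and 3.89% lower in the knockout, while of those up to 3 kb 1.82% were higher and 6.23% lower. At day 0 the same medians all lay between -0.02 and 0.00. The median also fell with level, and within genes of 20 to 100 CPM it was 0.28 for those over 100 kb and 0.05 for those up to 10 kb. The named genes followed the same order. The 30 higher genes of ranks 11 to 40 had a median length of 101 kb, and 15 of them exceeded 100 kb (NFIA, NTM, DAB1 and MAPK10 among them), against 10.9 kb and 2 genes on the lower side. When each ratio was centred on genes of like length and level, all 30 higher genes stayed at least 2-fold higher and 29 of the 30 lower genes at least 2-fold lower. They were picked for ratios past 2-fold, so this was close to fixed in advance.

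**Figure D5:**
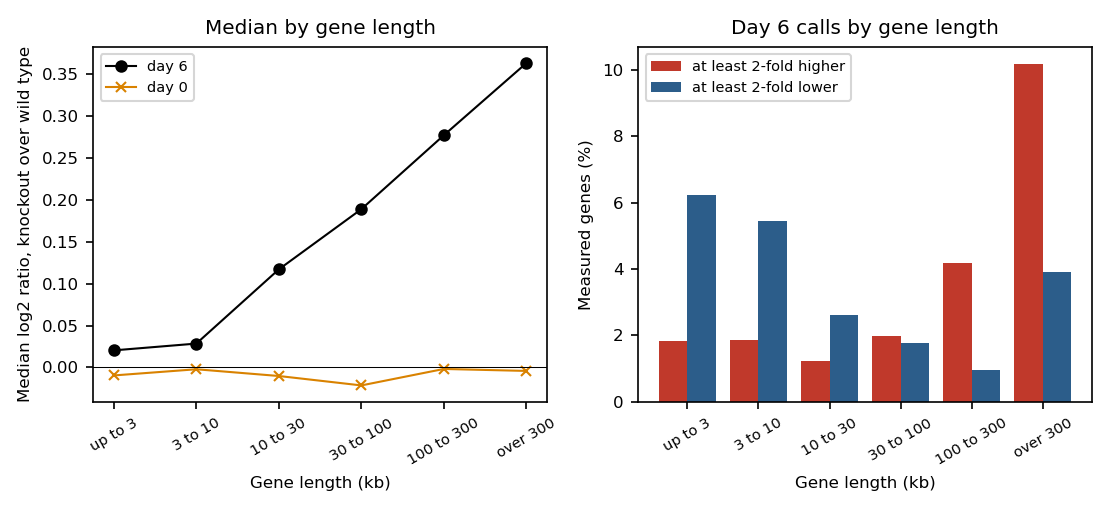
Left, median log2 ratio, knockout over wild type, in 6 bins of gene length (kb, from start to end of the annotated gene) at day 6 (black) and day 0 (orange). Right, percent of measured genes in each bin called at least 2-fold higher (red) or lower (blue) at day 6. The day 6 median climbs to 0.36 over 300 kb while the day 0 medians stay within 0.02 of 0.

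Because the libraries stood apart on chromosome 20, the ratios were also computed with only the 1208 knockout cells that held at least 3% of their UMIs there. The wild type was not filtered. All 5372 of its cells stayed in, of which 4198 reached 3%, so the 2 sides were not matched on chromosome 20. Of the 30 lower genes of ranks 11 to 40, all but ZNF680, 29 in number, stayed at least 2-fold lower. The median log2 ratio of the 30 was -2.20 against -2.32 before. Of the 30 higher genes, 16 stayed 2-fold or more above the wild type and 26 stayed 1.5-fold or more, and the median was 1.02 against 1.58. PTN moved to 0.81 (1.99 with all cells), NTS to 0.46 (1.95), MAPK10 to 0.37 (1.57) and MAP2 to 0.54 (1.51). FABP7 moved to 1.39 (2.48) and SOX5 to 1.35 (2.17). BRCA2 (1.56 against 1.54), ASPM (1.28 against 1.39) and EFNB2 (1.28 against 1.38) changed little. Of all genes, 1278 were at least 1.5-fold higher and 520 lower in these cells. The neural progenitor list had 8 members higher and 0 lower in them. Its median stood 0.26 above that of all genes, against 0.60 with all cells. The neural crest list had 2 higher and 2 lower. The YAP list had 2 higher and 13 lower, and the p53 list 0 and 12. FOXA2 reached a log2 ratio of 0.92 in them, but it is itself a chromosome 20 gene and counts towards the share that chose the cells. None of the 30 higher genes and 2 of the 30 lower genes, ID1 and CST1, lie on chromosome 20.

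Most genes called at day 6 were not called at day 0, where few genes of any kind were called. At 1.5-fold, 1.64% of all measured genes were higher and 2.34% lower at day 0. Among genes measured on both days, 1041 were at least 1.5-fold higher at day 6 and within that limit at day 0, 57 were higher on both days and 11 were higher at day 6 and lower at day 0. On the lower side the counts were 381, 54 and 12. Of the genes not called at day 6, 7455 were within the limit at day 0 too, 79 were higher and 78 lower. The difference between the days was not tested. Genes low in the knockout on both days, chosen after their values were seen, included some with almost no RNA. TMBIM4, a Golgi membrane protein of the BAX inhibitor family, had 0.196 CPM in the knockout and 24.5 CPM in the wild type at day 6, from 9 and 829 UMIs, and 0.116 and 19.96 CPM at day 0. PCDHB5, a clustered protocadherin, had 0.939 and 11.03 CPM at day 6, and ZNF680, a zinc finger gene, 7.23 and 31.8 CPM. ZNF680's log2 ratio of -2.14 became -0.80 in the knockout cells with at least 3% of UMIs from chromosome 20. S100A6, a calcium-binding protein, had 4.24 CPM in the knockout and 95.3 CPM in the wild type at day 6, and 0.656 and 24.5 CPM at day 0. Its UMIs were in 0.973% of thinned knockout cells, under the 11.5% that 10% of free RNA would give there. The assumed 10% thus did not describe this gene in those cells. In wild-type cells the share was 18.7%, above the 2.49% that free RNA would give. Where the knockout UMIs came from was not tested.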

How the data were processed

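The values deposited by the authors were raw counts of UMIs for 36601 features in each barcode, without normalisation. Cell Ranger 6.1.2 and GRCh38 are named per the submitters' processing notes, while the file headers name Cell Ranger 4. The deposited counts held every barcode (1881372 in the knockout and 1556315 in the wild-type library at day 6, with 68523677 and 54824132 UMIs), so cells were called here by the limits above. Doublets were kept and no caller was run. Counts were summed per library, and ratios carry exact conditional binomial (Clopper-Pearson) 95% intervals, levels exact Poisson and shares exact binomial ones. PCR and capture error are not covered. Log2 ratios used a prior count of 0.5. The procedure was tested on simulated data. Free RNA came from barcodes of 1 to 50 UMIs. Positions were those of a GENCODE annotation (GRCh38), matched by Ensembl identifier for 9763 of the 9777 measured genes. Tools were Python 3.11.15, numpy 2.4.6, scipy 1.17.1, pandas 2.3.3, edgeR 4.0.16 and DESeq2 1.42.0, the last 2 for scaling factors alone.

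Named genes were ranks 11 to 40 in each direction, the 10 widest gaps in share each way, SIRT1, up to 5 members past 1.5-fold per list and the markers. EGR1, ID3, FLNA, RANGAP1, COL11A1, MALAT1 and genes low on both days were named after their values were seen. The genes and all 55 lists were chosen with earlier results of these data known, and a gene can stand in several lists. Not every gene that met these criteria is reported. Counts of near-identical gene copies are uncertain. Alternatives were other scalings, level, depth and mitochondrial limits, thinning, free RNA subtraction and subsets by chromosome 20; centring by gene length and level was added after the length trend was seen.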

Additional observations from a re-analysis of the deposited data

Results flagged for a closer look

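5 of the named genes were at least 1.5-fold higher in the knockout on 1 day and at least 1.5-fold lower on the other. APLN, a secreted peptide induced by hypoxia, had a log2 ratio of -1.43 at day 6 and 2.35 at day 0. FN1 had -1.47 at day 6 and 1.49 at day 0. FABP7 had 2.48 at day 6 and -0.995 at day 0, L1TD1 1.20 and -0.63, and RBIS 1.09 and -0.86. With 1 library per group, the difference between the days was not tested.

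RNA outside the cells of the knockout library held genes that were far lower in its cells or absent from them. In barcodes of 1 to 50 UMIs from the day 6 knockout library, SPINK4, a secreted protein of goblet cells, reached 111 CPM over all UMIs (220 UMIs), against 0 in those of the wild-type library, while the knockout cells together held 0 SPINK4 UMIs. LYZ (lysozyme) reached 118 CPM there (234 UMIs), against 0.584 in the wild type, with 13 UMIs in all knockout cells. S100A6 reached 304 CPM in these knockout barcodes and 63.1 in the wild-type ones, although knockout cells held 2.97 and wild-type cells 62.7 CPM over all UMIs. KLK10, a secreted protease, reached 90.5 CPM in knockout and 0.584 in wild-type barcodes of that size. Knockout cells held it at 2.79 CPM over all UMIs (182 UMIs) and wild-type cells at 2.14. These were the 4 genes with at least 100 such UMIs at a level at least 10-fold above the cells of the day 6 knockout library, and the wild-type libraries of both days had 0. The day 0 knockout library had 5. Where this RNA came from was not tested.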

How the results depend on the processing

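No paired analysis was possible because each group held 1 library. The count of genes higher in the knockout, 232, became 132 with TMM factors, 127 with DESeq2 size factors, 137 with a minimum level of 20, 1276 with no minimum level, 1244 at 1.5-fold and 95 when ratios were centred on genes of like length and level. The count of lower genes, 261, became 1250 with no minimum level and 576 at 1.5-fold, and was 344 when centred. The other settings run kept both counts within 1.5 times of the main ones. SIRT1's log2 ratio, -1.70, was -1.83 with DESeq2 size factors, -1.83 in cells of at least 8000 UMIs, -1.56 in thinned cells and -1.89 when centred. The median log2 ratio of all genes, 0.16, was 0.0325 with TMM factors and 0.0216 with DESeq2 size factors. Genes with a share of cells at least 10 points higher numbered 210, and 85 after thinning to 2000 UMIs or 4878 with no thinning. Those at least 10 points lower numbered 110, and 62 or 63. Knockout cells were deeper, and the counts without thinning carry that depth. Of 244 named measured genes, the 238 called at 1.5-fold kept their sign under the settings run. These 238 had passed 1.5-fold in the same counts, so a kept sign was largely fixed in advance. Of the 6 not called, 4 changed sign in at least 1 setting (FOXA2, SOX2, OTX2 and LIN28A, whose main log2 ratios were 0.05, 0.06, -0.35 and -0.09). In knockout cells with at least 3% of UMIs from chromosome 20, 178 of the 244 left their counting interval. The median of genes over 300 kb minus that of genes up to 3 kb was 0.34, and 0.31 to 0.36 in the other settings for which it was computed. Depth limits genes under 10 CPM, and 1 library per genotype limits every ratio.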
